A study of Homo sapiens with 9 samples.

Results

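The genes described here are 35 genes of the G2 phase and of mitosis, chosen by symbol as a functional group, with earlier results of these data known. They make up 35 of the 60719 genes in the expression table. All 35 were among the 13879 genes that passed the filter of at least 1 TPM (the number of transcripts out of every 1000000, a relative transcript abundance corrected for transcript length) in at least 3 libraries. The study asked how breast cancer cells respond to vesicles shed by cells made senescent by a drug. Recipient cells of MDA-MB-231, a human triple-negative breast cancer line with mesenchymal features, were kept in exo-free media (given as 5%) over 72 h of exposure, and their total RNA was sequenced. The No sEV group received no vesicles. The Cont sEV and TIS sEV groups received small extracellular vesicles from donor MDA-MB-231 cells that had been exposed for 72 h to DMSO or to nocodazole at 100 ng/ml, respectively, and then kept for a further 72 h in exo-free media. Vesicles were isolated from the conditioned media by differential centrifugation. Each group held 3 libraries, all recipients and donors were 1 wild-type cell line. Whether the replicates of a group came from separate cultures is not stated in the labels, so p-values here describe the spread between libraries, and that spread may be technical.

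Entry into mitosis is driven by CDK1 bound to cyclin A or cyclin B, after the phosphatase CDC25C removes the inhibitory phosphates from CDK1. Polo and Aurora kinases then build the spindle, the spindle checkpoint delays anaphase until every kinetochore is attached, and the anaphase-promoting complex ends mitosis by marking cyclin B and securin for destruction. These genes are transcribed late in the cycle and stay low in resting and senescent cells. Their promoters often carry a cell cycle genes homology region (CHR), which MuvB complexes with B-MYB and FOXM1 or with repressive partners bind, and CCAAT boxes, which NF-Y binds. Nocodazole, the drug given to the donors, depolymerises microtubules and arrests cells at the spindle checkpoint.

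Promoter stretches are shown for 13 of the genes whose values are given library by library below, because CHR and CCAAT letters recur among the promoters of these genes. RefSeq promoter windows on GRCh38.p14, from 250 bases before to 50 after an annotated start, were available for 29 of the 35 genes in 36 windows. AURKA, TTK, UBE2C, BIRC5, TPX2 and FOXM1 had none in the table used. CHR letters (TTTGAA or TTCGAA) and CCAAT letters were searched on both strands, and the motifs can share at most 1 base. Each stretch of 30 bases is written 5′ to 3′ on the gene's own strand, with the match in capitals. The match is to CHR letters, which read TTCAAA when they lie on the other strand, or to CCAAT, which reads ATTGG when it lies on the other strand, where a window held no CHR letters.
CCNB1: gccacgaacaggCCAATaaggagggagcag
CDK1: ctcgcacttggcTTCAAAgctggctcttgg
CDC25C: gctggcggaaggTTTGAAtggtcaacgcct
PLK1: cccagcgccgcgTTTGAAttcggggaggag
AURKB: accagcgcccagATTGGggctagtgtgctg
NEK2: gcccaccgcctgCCAATagactgcgagatc
BUB1: ctgcgcggggtaTTCGAAtcggcggcggct
BUB1B: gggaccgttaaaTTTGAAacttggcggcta
CENPF: ccggtggcggctgcgggcagTTTGAAttag
KIF11: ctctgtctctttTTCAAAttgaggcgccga
PRC1: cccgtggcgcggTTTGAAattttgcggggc
TOP2A: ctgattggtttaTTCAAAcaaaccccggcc
MKI67: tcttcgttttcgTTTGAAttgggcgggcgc
The CDC25C stretch lies at chr5:138331817-138331846 on the minus strand, with its match starting at position -30 from the start. That of PLK1 lies at chr16:23678848-23678877 (plus strand, position -29), that of BUB1B at chr15:40161034-40161063 (plus, -23) and that of KIF11 at chr10:92593090-92593119 (plus, -28). The BUB1 match begins after the start, at position 2, within chr2:110678045-110678074 (minus). The remaining stretches are CCNB1 at chr5:69167083-69167112 (plus, -55), CDK1 at chr10:60778475-60778504 (plus, 10) and NEK2 at chr1:211675638-211675667 (minus, -34), then AURKB at chr17:8210361-8210390 (minus, -129), CENPF at chr1:214603215-214603244 (plus, 41) and PRC1 at chr15:90994538-90994567 (minus, -20), and TOP2A at chr17:40418030-40418059 (minus, -151) and MKI67 at chr10:128126435-128126464 (minus, -29). Of the 29 genes with a window, 22 (75.9%) held CHR letters, against 19.5% of all 27305 genes with a window and 15.5% of the 10298 tested genes with one. Within 50 bases on either side of the start, CHR letters were present in 18 of 29 (62.1%), against 6.24% of all genes and 5.01% of tested genes. CCAAT letters were present in 24 of 29 (82.8%), against 39.7% of all genes and 43.7% of tested genes, and 18 of 29 (62.1%) held both motifs in 1 window, against 7.85% of all genes and 6.62% of tested genes. These are matches of letters and were not tested as binding sites.

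**Figure D1:**
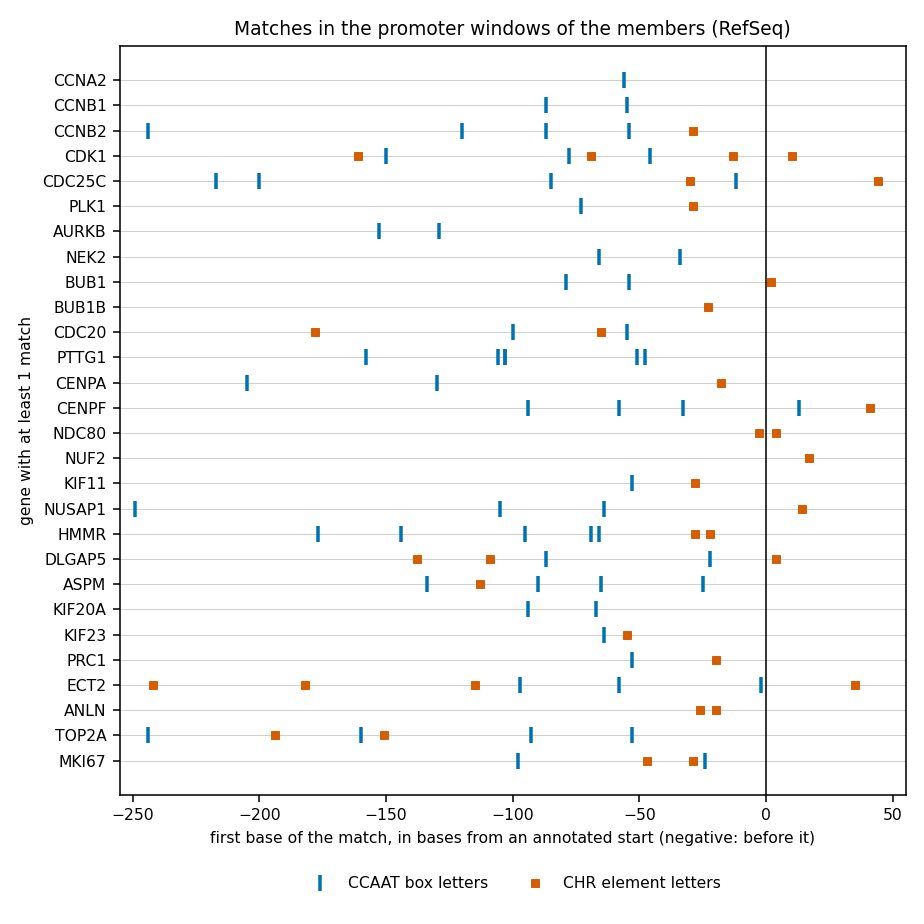
Positions of CCAAT letters (bars) and CHR letters (squares) in the promoter windows of the G2/M and mitosis genes with at least 1 match, in bases from an annotated start on the x axis, 1 gene per line. Of the 29 genes with a window, 18 held CHR letters within 50 bases of the start, and CCAAT letters lay mostly before it.

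Each library sums to 1000000 TPM, so read depth is unknown, and 21292 to 21975 genes per library were above 0. The cell line's mesenchymal markers were high in all 9 libraries, with VIM at 2206 to 2299 TPM and CD44 at 428 to 514 TPM, while ESR1 stayed at or below 0.22 TPM, PGR at or below 0.0502 and CDH1 at or below 0.577. EPCAM, an epithelial marker, and ERBB2 were not near 0, at 21.1 to 25.9 TPM and 26.2 to 30.7 TPM. Markers of immune and endothelial cells and of fibroblasts were low (PTPRC at most 1.41, CD3E at most 0.0387, PECAM1 at most 2.16 and COL1A1 at most 9.26 TPM). The share of TPM from mitochondrially encoded genes was 2.47% to 2.92% with No sEV, 2.58% to 3.39% with Cont sEV and 2.07% to 2.52% with TIS sEV, and Cont sEV replicate 2 had the highest share. Over all 13879 tested genes, limma, with p-values adjusted by Benjamini-Hochberg, called 13 genes between TIS sEV and Cont sEV, 1 between TIS sEV and No sEV and 0 between Cont sEV and No sEV, where 837 had an unadjusted p under 0.05. The 13 became 2 without TIS sEV replicate 1, and likewise without Cont sEV replicate 2. They became 3 without Cont sEV replicate 3, and likewise without No sEV replicate 3. Without TIS sEV replicate 2 they became 4, without TIS sEV replicate 3 they became 7 and without No sEV replicate 1 they became 8. With each of the 9 libraries left out in turn, the number ran from 2 to 13.

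The securin gene PTTG1 was the most abundant, at a mean of 361 TPM over the 9 libraries, followed by UBE2C (231 TPM), CCNB1 (217 TPM) and CDC20 (207 TPM). The hyaluronan receptor gene HMMR was the lowest at 8.74 TPM, and CENPE (15.9 TPM), CDC25C (17.2 TPM) and ASPM (18.3 TPM) were the only others under 20 TPM. The median of the 35 means was 57.2 TPM, and 8 genes reached 100 TPM. The ratio of the highest to the lowest of the 9 libraries ran from 1.05 for CDC20 to 1.34 for NUSAP1, with a median of 1.12.

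No G2/M or mitosis gene passed the test in any comparison. With TIS sEV, 30 of the 35 had a higher mean log2 level than with Cont sEV (59.6% of all tested genes did), and the median log2 fold change of the 35 was 0.062 on the log2(TPM + 1) scale against 0.020 over all tested genes. The smallest p-values were those of UBE2C, CDC25C, NEK2, BUB1B, CDK1 and BUB1, while by size the largest log2 fold changes were those of CDC25C (0.26), NUSAP1 (0.16) and UBE2C (0.16). Adjusted p-values under 0.05 were found for 0 of 35 genes, where 0.0937% of all tested genes passed, and unadjusted p-values under 0.05 for 8 of 35, where 10% of tested genes had one. The other 2 of these 8 were DLGAP5 and TOP2A. In 10 of 35 genes all 3 TIS sEV libraries lay above all 3 Cont sEV libraries (10.9% of tested genes did), and in 0 of 35 they lay below (4.47%). Over the 35 genes, the lowest and highest bounds of the 95% confidence intervals were -0.17 and 0.38 log2, and the median interval extended 0.091 to each side. In bulk RNA, a larger share of cells in G2 and mitosis and more transcript per such cell cannot be told apart.

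Against No sEV, 27 of 35 genes had a higher mean with TIS sEV, where 66.7% of tested genes did. The median log2 fold change of the 35 was 0.03, and that of all tested genes was 0.032. Adjusted p-values passed for 0 of 35 (0.00721% of tested genes), and unadjusted p-values were under 0.05 for 5 of 35 (7.97%), namely UBE2C, BUB1, NEK2, NUSAP1 and TPX2. In 8 of 35 genes the TIS sEV libraries lay above all No sEV libraries (11.3%), and in 0 they lay below (2.77%). After median-of-ratios scaling, described below, only NEK2, BUB1 and UBE2C lay above in this way (3 of 35, against 5.66% of tested genes). The intervals of the 35 genes lay between -0.23 and 0.36 log2.

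Between Cont sEV and No sEV, the mean was higher with Cont sEV for 12 of 35 genes, against 56.5% of tested genes, and the median log2 fold change was -0.016, against 0.011 over tested genes. Adjusted p-values passed for 0 of 35 (0% of tested genes). Only CDC25C, 1 of the 35, had an unadjusted p under 0.05 (6.03% of tested genes). PTTG1 and KIF20A were higher in all 3 Cont sEV libraries (2 of 35, against 6.72%), and CDC25C and UBE2C were lower in all 3 (2 of 35, against 4.47%). After median-of-ratios scaling, CDC25C, UBE2C, AURKA, AURKB, TTK and ANLN were lower in all 3 (6 of 35, against 6.15%) and KIF20A was higher in all 3 (1 of 35, against 5.71%). Without mitochondrially encoded genes, 1 of 35 was lower in all 3 (4.03%). The 35 intervals lay between -0.29 and 0.28 log2. Groups of fewer libraries separate more easily among all genes too. The 2 genes lower in all Cont sEV libraries became 7, 6 and 5 without No sEV replicates 1, 2 and 3 (9.17%, 9.19% and 7.98% of tested genes), and 5 and 4 without Cont sEV replicates 1 and 3 (10.6% and 7.96%). The 12 higher means became 6 without Cont sEV replicate 1 (50.5% of tested genes), where the median was -0.037 (0.0011 over tested genes), and the median was -0.032 without No sEV replicate 2 (0.0094 over tested genes). Without Cont sEV replicate 2, the genes higher in all Cont sEV libraries numbered 5 (18.0%). The 3 comparisons share libraries, so their values are set side by side here and were not tested against each other.

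**Figure D2:**
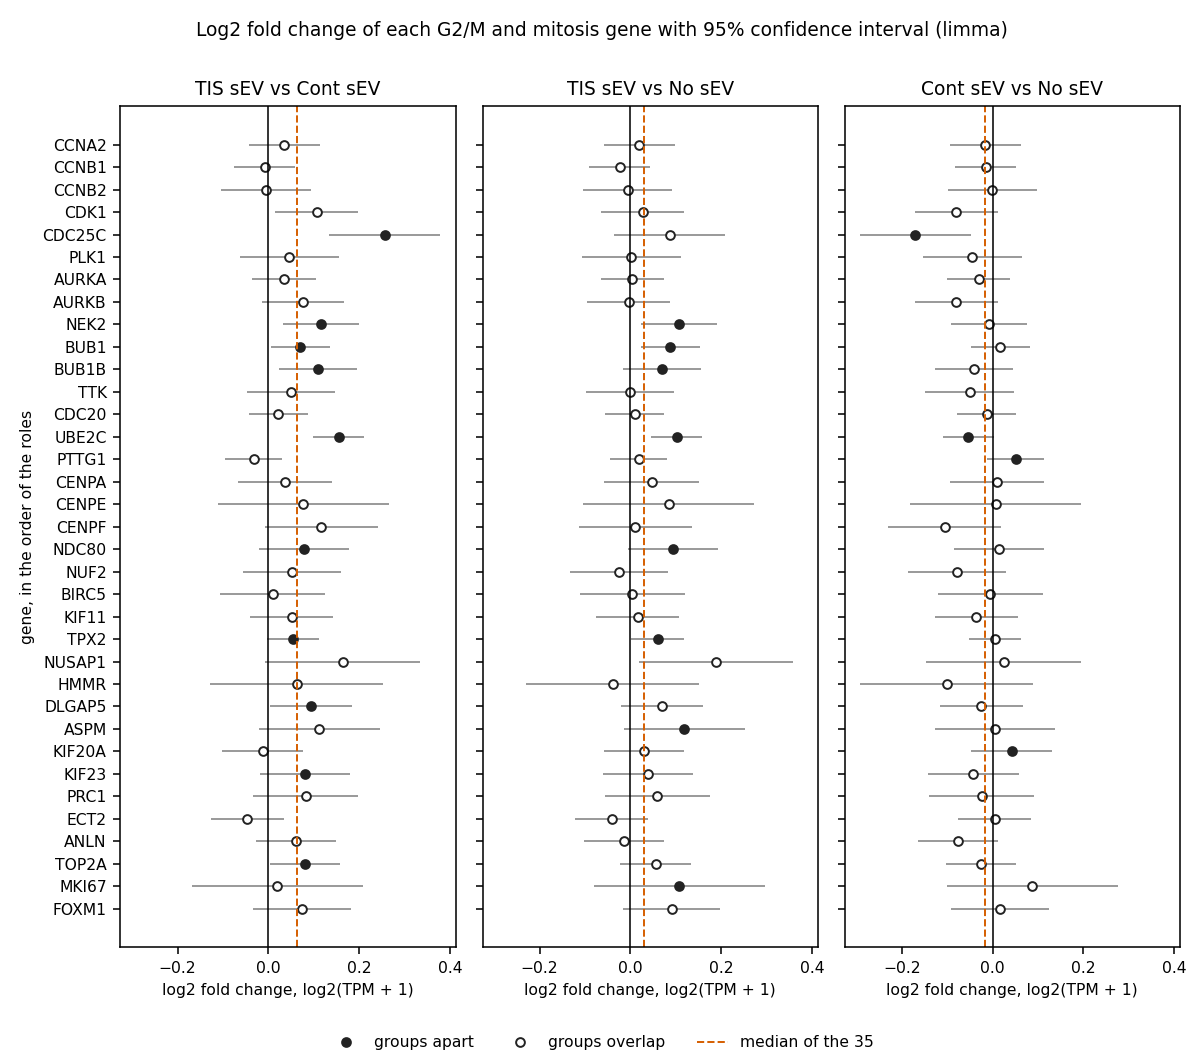
Log2 fold change of each of the 35 genes on the log2(TPM + 1) scale (x axis) with its 95% confidence interval in the 3 comparisons, genes ordered by role. Filled points mark genes whose groups of 3 libraries do not overlap, and the dashed line is the median of the 35, at 0.062 for TIS sEV vs Cont sEV, 0.03 for TIS sEV vs No sEV and -0.016 for Cont sEV vs No sEV.

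Counts of direction depended on how libraries were scaled. TPM values are relative, and dividing each library by the median ratio of its genes to their average over libraries (median-of-ratios scaling) centred all tested genes near 0. After it, 28 of 35 genes still had a higher mean with TIS sEV than with Cont sEV, where 50.3% of tested genes did, and the median was 0.043 in place of 0.062. Against No sEV the count was 17 of 35 instead of 27, where 50.8% of tested genes were higher, and the median was -0.0025. With Cont sEV against No sEV it was 7 of 35 instead of 12, where 50.2% of tested genes were higher, and the median was -0.027. On that scale Cont sEV was the group that stood low, and TIS sEV and No sEV lay together. For 10 of 35 genes all TIS sEV libraries lay above all Cont sEV libraries there too (7.67% of tested genes). No gene of the 35 had them all below (7.17%). TTK was among those 10 in place of DLGAP5.

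The summed level of the 35 genes showed the same dependence. As deposited, it was 2878, 2877 and 2879 TPM in the No sEV libraries, 2881, 2797 and 2867 TPM with Cont sEV, and 2953, 2967 and 2933 TPM with TIS sEV. All 3 TIS sEV libraries were above the other 6, and Cont sEV replicate 2 was the lowest. After median-of-ratios scaling the sums were 2922, 2916 and 2888 with No sEV, 2849, 2858 and 2858 with Cont sEV, and 2927, 2905 and 2913 with TIS sEV. There the 3 Cont sEV libraries were below the other 6, and No sEV and TIS sEV overlapped. The 35 genes held between 0.280% and 0.297% of all TPM in a library.

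**Figure D3:**
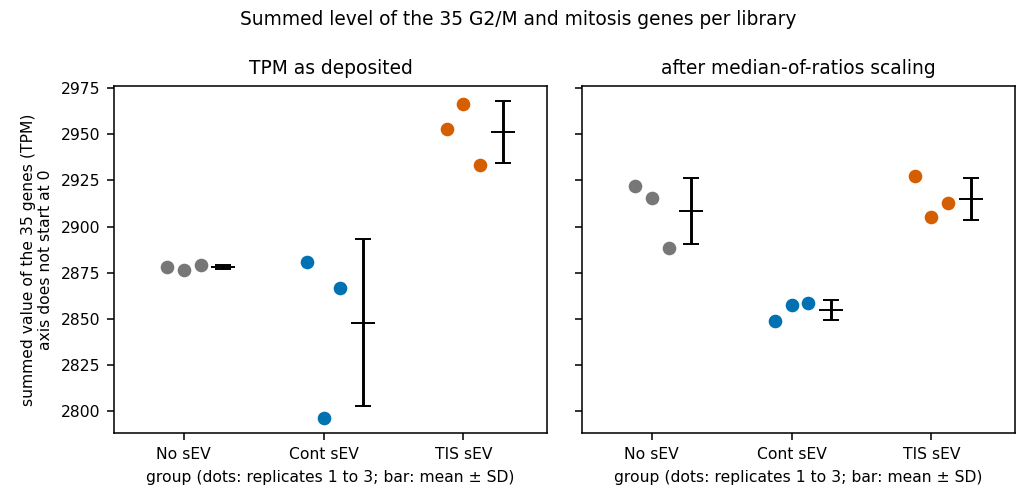
Summed value of the 35 genes in each library (dots) with the mean and SD of each group of 3 (bars), as deposited in TPM (left) and after median-of-ratios scaling (right), on a y axis that does not start at 0. As deposited, the TIS sEV libraries (2933 to 2967 TPM) lay above the others, and after scaling the Cont sEV libraries (2849 to 2858) lay below the others.

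Among the cyclins, CDK1 and its activators, CDC25C, the phosphatase that switches CDK1 on, had the largest difference. CDC25C (ENSG00000158402.20, GRCh38 chr5:138285265-138338355, minus strand) was at 18.4, 17.2 and 17.1 TPM with No sEV, 16.2, 15.5 and 14.7 TPM with Cont sEV, and 18.3, 19.3 and 18.5 TPM with TIS sEV. The Cont sEV libraries were below all others, and No sEV and TIS sEV overlapped. For CDC25C the log2 fold change was 0.26 (SE 0.055, adjusted p = 0.173) for TIS sEV vs Cont sEV and -0.17 (SE 0.055, adjusted p = 0.789) for Cont sEV vs No sEV, while TIS sEV vs No sEV gave 0.087 (adjusted p = 0.728). Of the 31-mers of CDC25C transcripts, 7.51% also occur in the overlapping gene FAM53C, itself at 37.6 TPM, so the level of CDC25C carries that uncertainty. The kinase gene CDK1 was at 94.4, 98.2 and 96.0 TPM with No sEV, 92.1, 94.5 and 86.5 TPM with Cont sEV, and 100.5, 93.9 and 99.8 TPM with TIS sEV. Its groups overlapped, with Cont sEV replicate 3 the lowest library. The log2 fold change of CDK1 was 0.11 (SE 0.041, adjusted p = 0.428) for TIS sEV vs Cont sEV.

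The 3 cyclins had groups that overlapped in each comparison. CCNB1, which encodes cyclin B1, the partner of CDK1 in mitosis, was at 221, 224 and 212 TPM with No sEV, 217, 214 and 218 TPM with Cont sEV, and 218, 219 and 209 TPM with TIS sEV. Its log2 fold change for TIS sEV vs Cont sEV was -0.0084 with a 95% confidence interval from -0.075 to 0.059. CCNB2, the other mitotic B-type cyclin, had means of 59.2 ± 2.70 (SD, n = 3), 59.2 ± 2.49 and 58.9 ± 1.30 TPM in No sEV, Cont sEV and TIS sEV cells. CCNA2, the cyclin of S and G2 phase, had means of 56.7 ± 1.57, 56.1 ± 1.34 and 57.5 ± 0.806 TPM in the same order. Within this role 3 of 5 genes had a higher mean with TIS sEV than with Cont sEV (median 0.035 log2), and 0 of 5 with Cont sEV than with No sEV.

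All 4 mitotic kinases had a higher mean with TIS sEV than with Cont sEV. The median of the 4 log2 fold changes was 0.061, and 0 of 4 passed the test. NEK2, a kinase that separates centrosomes at mitotic entry, was at 36.3, 34.1 and 36.0 TPM with No sEV, 35.5, 35.3 and 34.96 TPM with Cont sEV, and 38.8, 38.1 and 38.0 TPM with TIS sEV. The TIS sEV libraries were above the other 6, among which No sEV and Cont sEV overlapped. The log2 fold change of NEK2 was 0.12 (SE 0.037, adjusted p = 0.343) against Cont sEV and 0.11 (SE 0.037, adjusted p = 0.558) against No sEV. AURKB, the kinase of the chromosomal passenger complex, was at 111, 103 and 109 TPM with No sEV, 104, 101 and 100.4 TPM with Cont sEV, and 102, 112 and 108 TPM with TIS sEV. Its groups overlapped, and its log2 fold change for Cont sEV vs No sEV was -0.08 (SE 0.041, adjusted p = 0.825). PLK1, which activates CDC25C and matures centrosomes, was at 59.9, 54.2 and 54.1 TPM with No sEV, 54.2, 54.4 and 54.2 TPM with Cont sEV, and 55.7, 53.6 and 59.1 TPM with TIS sEV. No sEV replicate 1 and TIS sEV replicate 3 stood above the other libraries, so its groups overlapped. AURKA, the centrosomal Aurora kinase, had means of 156 ± 1.35, 153 ± 5.20 and 157 ± 3.40 TPM in No sEV, Cont sEV and TIS sEV cells. PLK1, AURKA and NEK2 share 15.1%, 16.3% and 18.6% of their 31-mers with transcripts of other genes, so their separate levels carry that uncertainty.

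The spindle checkpoint genes were higher in the TIS sEV libraries than in the other 6 when summed (135 to 136 TPM against 127 to 131 TPM), on the deposited scale. After median-of-ratios scaling their sums with TIS sEV overlapped those with No sEV. BUB1, a kinase that recruits checkpoint proteins to kinetochores, was at 70.0, 70.4 and 69.7 TPM with No sEV, 71.2, 69.4 and 72.1 TPM with Cont sEV, and 75.1, 74.1 and 74.2 TPM with TIS sEV. All TIS sEV libraries of BUB1 lay above the other 6. BUB1 had a log2 fold change of 0.071 (SE 0.029, adjusted p = 0.460) against Cont sEV and 0.088 (SE 0.029, adjusted p = 0.539) against No sEV. BUB1B, which encodes the checkpoint protein BUBR1, was at 37.0, 35.9 and 35.1 TPM with No sEV, 34.1, 35.5 and 35.4 TPM with Cont sEV, and 37.8, 37.1 and 38.6 TPM with TIS sEV. On the deposited scale the TIS sEV libraries were again above the others, the lowest of them only just above No sEV replicate 1, and after median-of-ratios scaling they overlapped No sEV. TIS sEV vs Cont sEV gave a log2 fold change of 0.11 (SE 0.038, adjusted p = 0.378). TTK, the MPS1 kinase that starts checkpoint signalling, had means of 23.5 ± 0.884, 22.6 ± 0.464 and 23.4 ± 0.361 TPM in No sEV, Cont sEV and TIS sEV cells. Its groups with TIS sEV and No sEV were nearly equal. Its TIS sEV and Cont sEV libraries overlapped as deposited, but after median-of-ratios scaling those with TIS sEV lay just above those with Cont sEV.

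**Figure D4:**
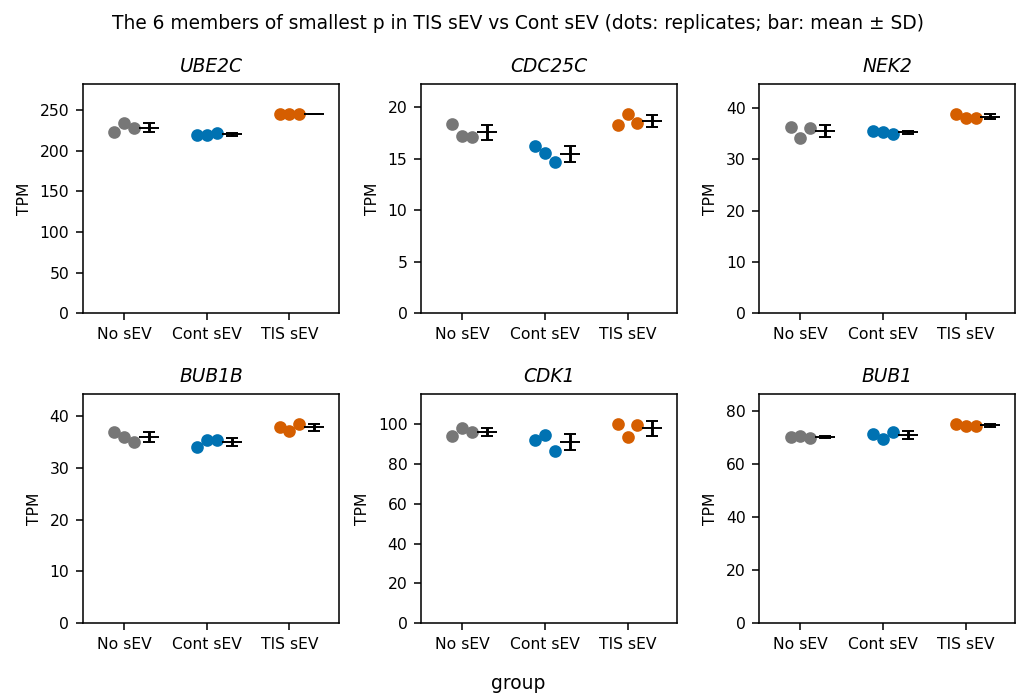
TPM in each library (dots) with the mean and SD of each group of 3 (bars) for the 6 genes of smallest p in TIS sEV vs Cont sEV, on y axes that start at 0. UBE2C, NEK2, BUB1 and BUB1B have all TIS sEV libraries above the other 6 as deposited (for BUB1B not after median-of-ratios scaling), while CDC25C separates only the Cont sEV libraries and CDK1 overlaps.

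The smallest p of the 35 genes belonged to UBE2C, the ubiquitin-conjugating enzyme that works with the anaphase-promoting complex. UBE2C (ENSG00000175063.17, GRCh38 chr20:45812576-45816957, plus strand) was at 223, 235 and 228 TPM with No sEV, 219, 219 and 222 TPM with Cont sEV, and 245, 245 and 245 TPM with TIS sEV. The 3 groups did not overlap: TIS sEV was highest and Cont sEV lowest, with No sEV replicate 1 just above the Cont sEV libraries. Its log2 fold change was 0.16 (SE 0.025, adjusted p = 0.0779) for TIS sEV vs Cont sEV, 0.10 (SE 0.025, adjusted p = 0.409) for TIS sEV vs No sEV and -0.054 (SE 0.025, adjusted p = 0.809) for Cont sEV vs No sEV. Over the alternatives run, its adjusted p against Cont sEV ranged from 0.0615 to 0.302. CDC20, which activates the complex at anaphase, had means of 208 ± 4.78, 206 ± 5.18 and 209 ± 3.17 TPM in No sEV, Cont sEV and TIS sEV cells, and 20.3% of its 31-mers also occur in the pseudogene CDC20P1, itself at 0.233 TPM. PTTG1 encodes securin, the inhibitor of separase, and had means of 356 ± 4.36, 368 ± 5.53 and 360.2 ± 12.1 TPM. As deposited, but not after median-of-ratios scaling, all 3 Cont sEV libraries of PTTG1 lay above those with No sEV (log2 fold change 0.051, adjusted p = 0.855).

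Of the 6 kinetochore and centromere genes, all 6 had a higher mean with TIS sEV than with Cont sEV (median 0.065 log2), and 0 had an unadjusted p under 0.05. CENPF, a large protein of the outer kinetochore, was at 49.97, 56.5 and 52.9 TPM with No sEV, 49.3, 46.4 and 52.2 TPM with Cont sEV, and 51.9, 55.5 and 53.1 TPM with TIS sEV. Its groups overlapped, and Cont sEV replicate 2 was the lowest library. NDC80 and NUF2 form part of the complex that grips microtubules. NDC80 had its TIS sEV libraries above the other 6, at 48.8 to 50.2 TPM against 44.6 to 48.6 TPM, and after median-of-ratios scaling it overlapped with No sEV. NUF2 had means of 57.0 ± 3.04, 53.9 ± 0.523 and 56.0 ± 2.91 TPM in No sEV, Cont sEV and TIS sEV cells, and its groups overlapped. The log2 fold change of NDC80 for TIS sEV vs Cont sEV was 0.079 (adjusted p = 0.602) and that of NUF2 0.053 (adjusted p = 0.776). The centromeric histone gene CENPA had means of 30.5 ± 1.31, 30.7 ± 1.06 and 31.5 ± 0.915 TPM in No sEV, Cont sEV and TIS sEV cells. CENPE, the kinetochore kinesin, had means of 15.5 ± 0.990, 15.6 ± 1.18 and 16.5 ± 1.799 TPM, and TIS sEV replicate 2 alone reached 18.6 TPM. BIRC5, which encodes survivin of the chromosomal passenger complex, had the closest means of this role, at 57.2 ± 3.34, 57.0 ± 2.93 and 57.4 ± 1.72 TPM.

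Spindle motors and assembly factors had the highest role median, 0.078 log2 for TIS sEV vs Cont sEV, with a higher mean in 6 of 6 genes and a pass of the test in 0 of 6. Their summed level was 362 to 376 TPM with TIS sEV, above the 333 to 352 TPM with No sEV and the 332 to 353 TPM with Cont sEV on the deposited scale. KIF11, the motor that pushes spindle poles apart, was at 30.2, 31.7 and 31.3 TPM with No sEV, 30.96, 30.1 and 29.8 TPM with Cont sEV, and 30.5, 32.4 and 31.4 TPM with TIS sEV. Its groups overlapped throughout. TPX2, which activates AURKA on the spindle, had the TIS sEV libraries at 129 to 132 TPM and the other 6 at 124 to 127 TPM, so they did not overlap as deposited, but those of TIS sEV and No sEV overlapped after median-of-ratios scaling. For TPX2 the log2 fold change was 0.055 (adjusted p = 0.526) against Cont sEV and 0.06 (adjusted p = 0.621) against No sEV. DLGAP5, a factor that stabilises kinetochore fibres, had means of 66.4 ± 2.03, 65.2 ± 0.517 and 69.8 ± 3.41 TPM in No sEV, Cont sEV and TIS sEV cells. As deposited, its TIS sEV libraries lay above those with Cont sEV but overlapped those with No sEV. After median-of-ratios scaling they overlapped both. ASPM, a spindle pole protein, had means of 17.7 ± 0.307, 17.8 ± 1.06 and 19.4 ± 1.17 TPM. NUSAP1, a microtubule-bundling protein, had means of 93.9 ± 7.62, 95.5 ± 8.19 and 107 ± 7.38 TPM, and a log2 fold change of 0.16 (SE 0.076, adjusted p = 0.519) for TIS sEV vs Cont sEV. For NUSAP1, 61.6% of 31-mers also occur in other transcripts, mostly of the gene AC087721.2, itself at 0.605 TPM, so its own level is uncertain. HMMR had means of 9.05 ± 0.716, 8.38 ± 0.849 and 8.78 ± 0.484 TPM.

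**Figure D5:**
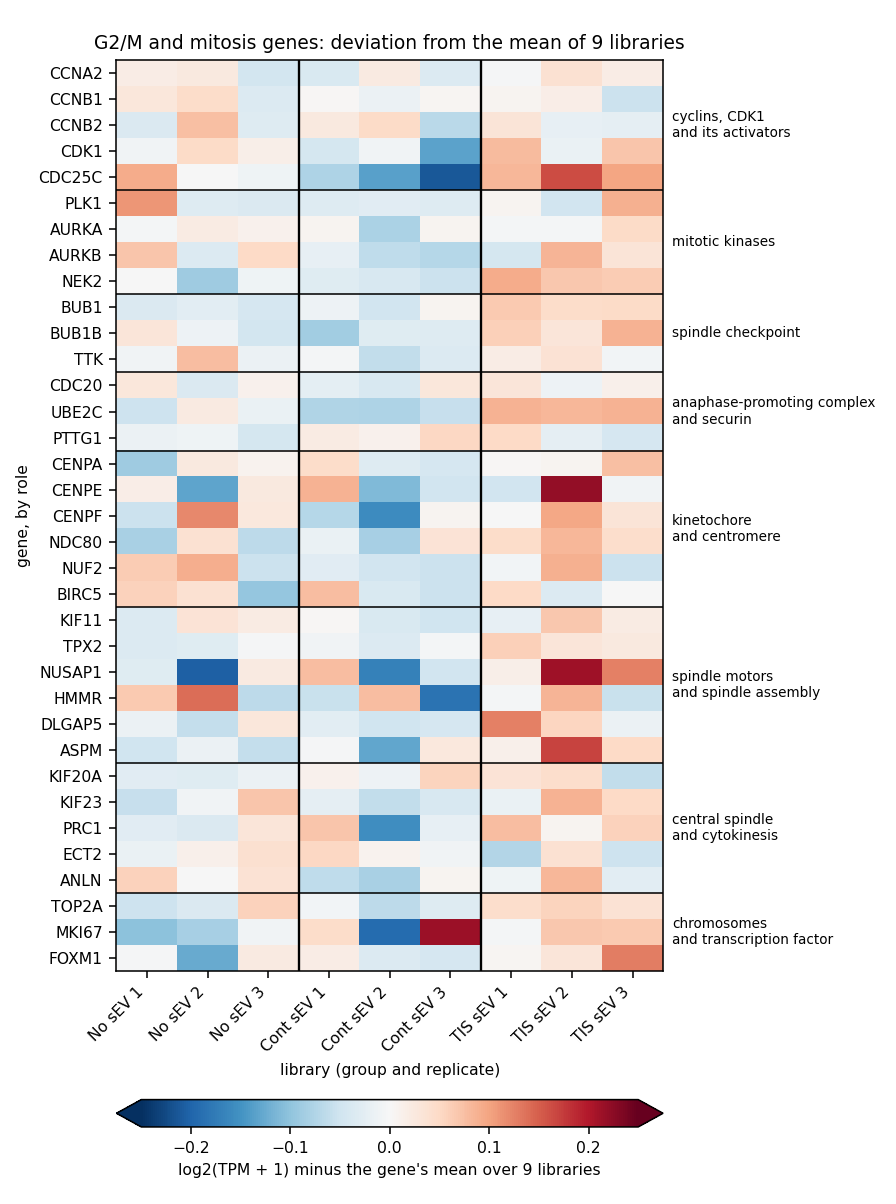
Deviation of each gene's log2(TPM + 1) from its mean over the 9 libraries (colour, log2 units) for the 35 genes by role (rows) in the 9 libraries (columns). On the deposited scale, Cont sEV replicate 2 held the lowest value of 14 genes, and TIS sEV replicate 2 the highest of 10. These libraries also had the lowest (0.979) and highest (1.02) median-of-ratios factors of the 9, so these counts depend on scaling.

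The genes of the central spindle and cytokinesis varied in direction. PRC1, which bundles the microtubules of the central spindle, was at 89.7, 89.3 and 93.5 TPM with No sEV, 96.1, 82.1 and 90.3 TPM with Cont sEV, and 96.7, 92.0 and 95.3 TPM with TIS sEV. Its groups overlapped, with a wide spread among the Cont sEV libraries, and 56.4% of its 31-mers also occur in other transcripts, mostly of AC068831.7, itself at 1.44 TPM, which leaves its level uncertain. KIF23, the kinesin of the centralspindlin complex, had means of 36.2 ± 1.65, 35.1 ± 0.474 and 37.2 ± 1.37 TPM in No sEV, Cont sEV and TIS sEV cells, and its TIS sEV libraries lay above those with Cont sEV. KIF20A, a kinesin that brings passenger proteins to the midzone, had means of 40.8 ± 0.255, 42.0 ± 1.05 and 41.7 ± 1.70 TPM. ECT2, the exchange factor that activates RHOA for furrowing, was lowest with TIS sEV, at 106 ± 2.17, 107 ± 2.28 and 103 ± 4.33 TPM, and differed from Cont sEV by a log2 fold change of -0.046 (adjusted p = 0.725). ANLN, the scaffold of the contractile ring, had means of 81.1 ± 1.66, 76.9 ± 2.56 and 80.3 ± 3.36 TPM. ECT2 and KIF20A were 2 of the 5 genes with a lower mean with TIS sEV than with Cont sEV; PTTG1, CCNB1 and CCNB2 were the others.

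Of the chromosome and transcription factor genes, TOP2A, the topoisomerase that untangles sister chromatids, was at 94.5, 95.6 and 102.03 TPM with No sEV, 97.5, 93.7 and 95.8 TPM with Cont sEV, and 101.1, 101.9 and 100.5 TPM with TIS sEV. The TIS sEV libraries were above all Cont sEV libraries, and No sEV replicate 3 was the highest of the 9. TIS sEV vs Cont sEV gave TOP2A a log2 fold change of 0.08 (SE 0.035, adjusted p = 0.481). MKI67, the proliferation marker Ki-67 that coats mitotic chromosomes, was at 38.1, 38.6 and 40.8 TPM with No sEV, 42.4, 35.8 and 47.7 TPM with Cont sEV, and 40.8, 43.0 and 42.9 TPM with TIS sEV. Cont sEV held both the lowest and the highest library of MKI67, and the TIS sEV libraries lay just above those with No sEV as deposited, but overlapped them after median-of-ratios scaling. Its log2 fold change was 0.02 with a 95% confidence interval from -0.17 to 0.21 for TIS sEV vs Cont sEV, so a difference of this gene could be bounded less tightly than for most of the 35. FOXM1, the transcription factor that drives many of these genes, was at 60.01, 55.004 and 61.1 TPM with No sEV, 60.9, 58.7 and 58.4 TPM with Cont sEV, and 60.4, 61.4 and 65.8 TPM with TIS sEV. Its groups overlapped, its log2 fold change for TIS sEV vs Cont sEV was 0.074 (adjusted p = 0.663), and 17.5% of its 31-mers occur in other transcripts, mostly of ITFG2.

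Over the 35 genes, the mean TPM as deposited was highest with TIS sEV for 25, with No sEV for 7 and with Cont sEV for 3. It was lowest with Cont sEV for 21, with No sEV for 11 and with TIS sEV for 3. These counts hold for the deposited scale only, and median-of-ratios scaling changed the counts of direction, as given above. Mitochondrially encoded genes were also left out before rescaling to TPM. The TIS sEV mean then exceeded the Cont sEV mean for 29 of 35 genes (54.6% of tested genes). The median log2 fold change was 0.052 there, against 0.0097 over tested genes. For 8 of 35 genes all TIS sEV libraries lay above all Cont sEV libraries (9.07%), and for 0 they lay below (5.83%). Without Cont sEV replicate 1 the genes whose TIS sEV libraries lay above those with Cont sEV numbered 18 (19.6% of tested genes did so), and without TIS sEV replicate 1 they numbered 16 (17.3%), the share over all tested genes having grown from 10.9% as well. Those lying below Cont sEV numbered 1 without TIS sEV replicate 1 (8.73%) or 2 (9.35%). Those lying below No sEV numbered 2 without TIS sEV replicate 2 (6.82%) and 1 without TIS sEV replicate 3 (5.56%) or No sEV replicate 3 (5.70%). The 18 genes with CHR letters within 50 bases of the start had a median log2 fold change of 0.066 for TIS sEV vs Cont sEV, the 11 with such letters elsewhere or absent 0.076, and the 6 without a window 0.052, values that lie close together and were not tested.

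Of 146 further mitosis genes listed by role, 145 passed the filter, TEX14 being the exception at no more than 0.824 TPM, and 0 of 145 passed the test in any of the 3 comparisons. With TIS sEV against Cont sEV, 103 of 145 (71.0%) had a higher mean, against 59.6% of all tested genes, and the median log2 fold change was 0.028. An unadjusted p under 0.05 was found for 17 of 145 (11.7%), near the 10% of all tested genes. Against No sEV, 104 of 145 (71.7%) had a higher mean (66.7% of all tested genes), the median was 0.040, and 17 (11.7%) had an unadjusted p under 0.05 (7.97%). For Cont sEV vs No sEV these were 79 of 145 (54.5%, against 56.5%), 0.0079 and 3 (2.07%, against 6.03%). After median-of-ratios scaling the higher means numbered 80, 83 and 68, where 50.3%, 50.8% and 50.2% of all tested genes were higher. The TIS sEV libraries lay above all Cont sEV libraries for 21 of these genes (14.5%, against 10.9% of all tested genes) and below for 2, CENPQ and CKS2 (1.38%, against 4.47%). By role, kinetochore genes had the highest median for TIS sEV vs Cont sEV, 0.067 log2 with 21 of 27 higher, followed by condensin, cohesion and separase genes at 0.056 with 14 of 18. Regulators of the G2/M programme (7 of 12, 0.0062), brakes and switches on CDK1 (10 of 18, 0.0099) and the anaphase-promoting complex with its regulators (10 of 17, 0.0078) lay below the median of all tested genes.

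GADD45A, a stress gene that restrains CDK1, was at 71.8, 78.6 and 74.5 TPM with No sEV, 76.8, 72.1 and 72.02 TPM with Cont sEV, and 83.4, 89.6 and 84.8 TPM with TIS sEV. Its log2 fold change for TIS sEV vs Cont sEV was 0.22 (SE 0.045, adjusted p = 0.160). CKAP5, a microtubule polymerase at spindle poles, was at 93.6, 97.7 and 91.01 TPM with No sEV, 95.2, 87.99 and 96.4 TPM with Cont sEV, and 106, 106 and 110.5 TPM with TIS sEV, a log2 fold change of 0.21 (SE 0.042, adjusted p = 0.160). For both genes the TIS sEV libraries were above the other 6. SPC24, a partner of NDC80 and NUF2, was at 15.02, 15.01 and 16.8 TPM with No sEV, 15.2, 14.5 and 12.2 TPM with Cont sEV, and 16.5, 19.8 and 19.1 TPM with TIS sEV. The TIS sEV libraries of SPC24 lay above those with Cont sEV and overlapped those with No sEV, and its log2 fold change for TIS sEV vs Cont sEV was 0.38 (SE 0.091, adjusted p = 0.223).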

How the data were processed

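Gene-level TPM values were deposited by the authors as 1 table of 60719 Ensembl genes for 9 libraries in 3 groups, and all 9 value columns were used. The submitters used Salmon 1.4.0 and the build GRCh38.p13, besides Trim Galore 0.6.6, FastQC 0.11.9 and DESeq2 1.28.0, per the submitters' processing notes. Their annotation release was not given in the sources used here. Values in TPM hold no read depth, so depth per library is unknown and no count model was fitted.

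Symbols matched 99.6% of IDs. Gene coordinates and transcripts for the comparison of 31-mers come from GENCODE 29 (GRCh38), not necessarily the authors' release. Values were transformed to log2(TPM + 1), which understates fold changes of low genes. A linear model over all 9 libraries, with a variance trend, was fitted with limma 3.58.1 (R 4.3.3) to the 13879 genes that reached 1 TPM in 3 or more libraries, two-sided, with Benjamini-Hochberg adjustment over all of them at 0.05. "Higher mean" refers to the mean of log2(TPM + 1). The steps were tested on simulated data. Motifs were searched in RefSeq promoter windows, and figures were drawn with matplotlib 3.10.9 in Python 3.11.15.

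All 35 genes are named with their level. Library values, fold changes and adjusted p are given for the 6 genes of smallest p in TIS sEV vs Cont sEV and the 3 in each other comparison, and library values also for MKI67, CCNB1, CDK1, PLK1, BUB1, CENPF, KIF11, PRC1, FOXM1 and TOP2A, with the 3 further mitosis genes of smallest p. The genes, lists and rules were chosen with earlier results of these data known. Replicate numbers come from the labels and were not used as pairs. As alternatives, the pseudocount, the filter and the scaling (median-of-ratios, quantile) were changed, mitochondrially encoded genes or single libraries were left out, and the fit was run with a replicate block, with library weights, with a constant prior variance or on only the libraries compared.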

Additional observations from a re-analysis of the deposited data

How the results depend on the processing

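With 3 libraries a group and unknown depth, single genes were resolved to about 0.091 log2 on either side, and 0 of 35 genes passed under each of the alternatives run. For TIS sEV vs Cont sEV, the median of the 35 was 0.043 after median-of-ratios scaling and 0.037 after quantile normalization, and the genes called over all tested were 2 with a constant prior variance, 3 with only the libraries compared and 2 to 13 with single libraries left out. Leaving out single libraries gave 10 to 18 of the 35 genes apart and higher (10.9% to 19.6% of tested genes) and 0 to 1 apart and lower (4.47% to 11.3%). For TIS sEV vs No sEV, genes called were 9 with no filter on low values, 0 with a constant prior variance, 2 with only the libraries compared and 1 to 2 with single libraries left out. Median-of-ratios scaling gave 17 higher means, 3 genes apart and higher (5.66% of tested genes) and a median of -0.0025, and quantile normalization 4 apart (5.36%) and a median of 0.0050. Genes apart and lower numbered 0 to 2 with single libraries left out (2.77% to 6.82% of tested genes). For Cont sEV vs No sEV, genes called were 7 with no filter, 1 with the filter at 5 TPM and 0 to 1 with single libraries left out. Median-of-ratios scaling gave 7 higher means, 1 gene apart and higher (5.71%) and 6 apart and lower (6.15%), and removal of mitochondrially encoded genes 1 apart and lower (4.03%). With single libraries left out there were 6 to 15 higher means, 2 to 5 genes apart and higher (6.72% to 18.0% of tested genes), 2 to 7 apart and lower (4.47% to 10.6%), and medians of -0.037 to -0.0082. The cause of these shifts was not tested. Libraries with the same replicate number did not deviate together (r from -0.048 to 0.079 over the 9 pairs), and not every library correlated best with its own number. With the replicate block, 9 genes were called over all tested for TIS sEV vs Cont sEV in place of 13, 0 of the 35 passed in any comparison, and UBE2C had an adjusted p of 0.142.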

Other observations

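The 35 genes differed in how tightly replicates of a group held together. The SD within groups, on the log2(TPM + 1) scale, had a median of 0.049. It was smallest for TPX2 (0.018), BUB1 (0.018) and UBE2C (0.022), and largest for MKI67 (0.12), CENPE (0.11), NUSAP1 (0.11) and HMMR (0.10). MKI67, the gene most often read as a marker of proliferation, thus had the widest spread of the 35: its Cont sEV libraries alone ran from 35.8 to 47.7 TPM. Cont sEV replicate 2 was the lowest library for 14 of the 35 genes on the deposited scale, a count that depends on scaling. Mitochondrially encoded genes took 3.39% of its TPM, the highest share of the 9. Their part in those values was not tested library by library.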
